A study of Homo sapiens with 8 samples.

Results

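Autophagy is the route by which a cell wraps part of its own cytoplasm in a double membrane, the autophagosome, and delivers it to lysosomes for breakdown. Its core machinery works in a chain: a kinase complex starts the process, a lipid kinase marks the membrane, ATG9 vesicles and lipid transfer proteins feed it, and ubiquitin-like conjugation systems attach ATG8 proteins to it, which bind receptors that carry the cargo. Neurons do not divide and so cannot dilute damaged organelles, and loss of core autophagy genes leads to neurodegeneration in mice. The 36 genes described here are members of this machinery, chosen by gene symbol. All 36 were found a single time among the 58395 genes of the deposited count table, and all 36 passed the filter on low counts that left 19999 genes for testing.

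The libraries came from human dopaminergic neurons made from induced pluripotent stem cells, sold under the name iCell DopaNeurons. The GDNF group (4 libraries) grew for 4 days on coverslips carrying a nanostructure built to mimic GDNF, a growth factor (glial cell line-derived neurotrophic factor) that supports the survival of dopaminergic neurons. The CT group (4 libraries) is read here as the comparator, because a scrambled version of the nanostructure is the other coating that the series design mentions; the labels themselves leave CT undefined, and their treatment text is the same for all samples. Every sample also carries a treatment entry of 10.73 mM and the same time of 4 days, so that neither dose nor time was compared, and the design text speaks of 3 replicates where 4 numbered libraries per group were analysed. Every library belongs to the same commercial product and nothing in the labels says whether libraries were separate cultures, so p-values measure only how far these libraries scatter, which may be technical.

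Total counts were 29532090 to 34559240 in GDNF and 28698283 to 31692788 in CT. At this depth the 35 members other than GABARAP had 90 to 7798 counts in each library. Levels are given as CPM, counts scaled to the depth of each library with TMM factors, and for comparisons between genes as CPM per kilobase of annotated exon. Markers of the labelled cell type were present, though unevenly. The 10 dopaminergic markers summed to 1918 to 2303 CPM in GDNF and 1848 to 2708 CPM in CT. The largest of them were LMX1B, DDC and LMX1A, with means of 812, 335 and 326 CPM over all libraries. TH had a mean of 220 CPM, SLC18A2 of 17.5 CPM and PITX3 of 2.37 CPM, and the dopamine transporter SLC6A3 averaged below 1 CPM. The 8 general neuronal markers summed to 8301 to 9455 CPM in GDNF and 6841 to 9528 CPM in CT. Markers of other cells were low or moderate, with 6 astrocyte markers summing to 3.58 to 5.09 CPM in GDNF and 3.72 to 6.01 CPM in CT, 5 microglial markers to 0.807 to 1.97 CPM in GDNF and 1.13 to 2.13 CPM in CT, and 7 progenitor markers, mainly VIM and NES, to 451 to 611 CPM in GDNF and 470 to 574 CPM in CT. Oligodendrocyte markers, nearly all from MBP, summed to 47.3 to 54.6 CPM in GDNF and 48.8 to 53.5 CPM in CT, and fibroblast markers to 59.2 to 75.6 CPM in GDNF and 49.2 to 75.7 CPM in CT. No marker of the 47 listed was at 0 in all libraries; the microglial gene AIF1 came closest, with 2 counts in all. CT replicate 2 differed from all other libraries along GC content, and for most members described in full the fold change is also given without it.

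The autophagy machinery was expressed in these neurons in both groups, and none of its genes passed the test for a difference between the GDNF mimic and CT. In edgeR's quasi-likelihood test, at a Benjamini-Hochberg false discovery rate of 0.05, 0 of 36 members were called higher and 0 lower, against 0% of all genes tested. An unadjusted p under 0.05 was reached by 0 members, against 0.88% of all genes, and the groups failed to overlap for 0 members, against 0.93% of all genes. DESeq2 and limma-voom with library quality weights also called 0 members, with 0 members at an unadjusted p under 0.05 in each. Such a p was reached by 0.774% of genes in DESeq2 and 4.19% in limma-voom. These shares are over unlike sets, 40414 genes in DESeq2, run without the low-count filter, and 19999 in limma-voom. In edgeR the adjusted p of the members was at least 0.99988. Among 36 genes, a count of 0 is near each of these shares and is not a result about the members. In bulk RNA a smaller number of cells of a type and a smaller amount of RNA per cell cannot be told apart, which holds for each value below.

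The data limit how large a difference could have gone unseen. Fitted fold changes ran from 0.840 for ATG4D to 1.16 for ATG4C, with 14 members above 1 (higher in GDNF) and 22 below, and the median log2 fold change was -0.011 over the members and -0.0098 over all genes tested. The 95% confidence interval lay within 1.5-fold either way for 30 of 36 members and within 2-fold for 36 of 36. For comparison, it lay within 1.5-fold for 52.5% of all genes tested and for 79.3% of genes averaging at least 5 CPM. Together the 36 genes took 0.231% to 0.255% of all counts, and 29 of them lay above the median level per kilobase of the tested genes. The 7 below it were WIPI1, ATG7, ATG10, ATG4A, ATG4C, GABARAP and CALCOCO2.

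**Figure D1:**
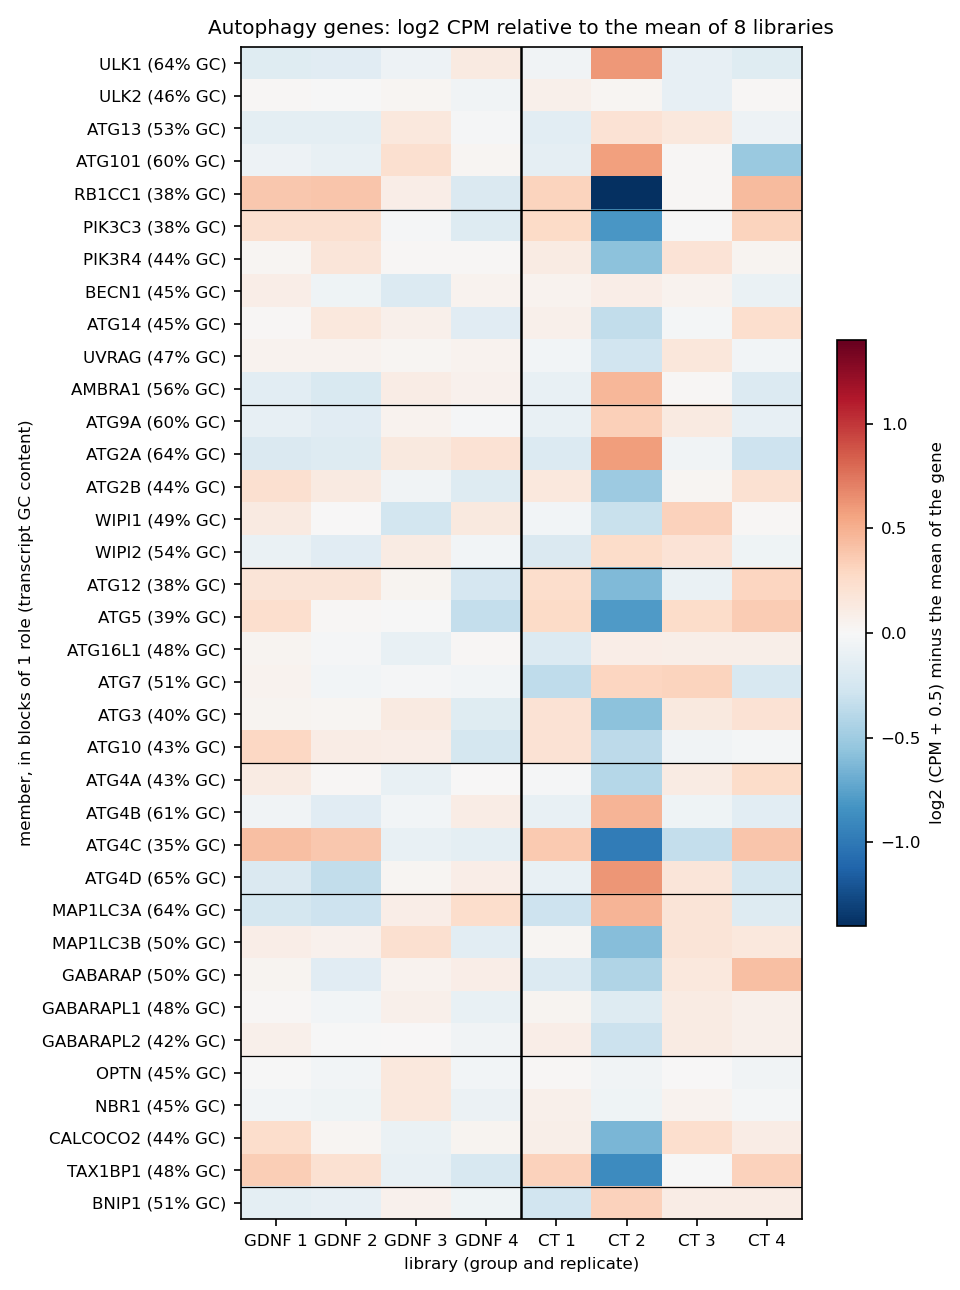
Deviation of each member's log2 (CPM + 0.5) from its mean over 8 libraries, with libraries across (GDNF left, CT right) and genes down in blocks of 1 role, each with the GC content of its longest annotated transcript. The column of CT replicate 2 holds most of the strong colours, blue for genes of low GC content such as RB1CC1 and ATG4C and red for genes of high GC content such as ULK1 and ATG4D.

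Autophagy is started by the ULK1 complex, in which the kinases ULK1 and ULK2 bind the adaptor ATG13, its partner ATG101 and the scaffold RB1CC1, also known as FIP200. Of these 5 genes 1 had a fold change above 1 and 4 below, with a median log2 fold change of -0.018 and 0 called in either direction. ULK1 (ENSG00000177169, chromosome 12, 131894651 to 131923167 in GRCh38) had 110.4, 112, 118 and 136 CPM in the GDNF libraries, against 119.6, 189, 115 and 111 CPM in the CT libraries. The values of 7 libraries lay close together, and CT replicate 2 stood far above them. The log2 fold change of ULK1 was -0.17 (95% confidence interval -0.56 to 0.23), and without CT replicate 2 it was 0.053. ULK2, the other kinase, had 132, 130.3, 133 and 126 CPM in GDNF and 137, 133, 120.3 and 132 CPM in CT. Its libraries differed less than those of any other member, with an SD of log2 CPM of 0.057 over all 8, and the group means of 130.4 ± 2.84 CPM in GDNF and 130.5 ± 7.14 CPM in CT (SD, n = 4 each) were close (interval -0.23 to 0.23). ULK1 was thus 1.08 to 1.39 times the level of ULK2 per kilobase in GDNF and 1.09 to 1.83 times in CT, where the 1.83 was CT replicate 2.

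RB1CC1, the scaffold that holds the complex together, varied most of all 36 genes. It had 134, 135, 110.0 and 89.4 CPM in GDNF, against 128, 38.4, 104 and 140.3 CPM in CT. CT replicate 2 lay far below every other library, and GDNF replicate 4 was the next lowest. The log2 fold change was 0.19 with an interval of -0.52 to 0.90, the widest of any member, and without CT replicate 2 it was -0.077 (interval -0.37 to 0.22). ATG13, which recruits the kinases to the membrane site, was the gene of the complex with the highest level per kilobase (17.3 CPM per kilobase) and had 109.8, 109.7, 134 and 119 CPM in GDNF and 109, 138, 133 and 115 CPM in CT. Both groups held libraries near 109 CPM and libraries of at least 133 CPM, and they overlapped over nearly their whole range (log2 fold change -0.068, interval -0.35 to 0.21). ATG101 was the lowest of the complex per kilobase (4.66), with 13.6 to 17.1 CPM in GDNF and 10.02 to 21.96 CPM in CT.

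The class III PI3 kinase complexes make the lipid PI3P on the forming membrane. PIK3C3 is the catalytic subunit, PIK3R4 and BECN1 are shared partners, ATG14 directs the complex to autophagosome formation and UVRAG to endosomes and later steps, and AMBRA1 binds BECN1 and helps to regulate the complex. Of these 6 genes 4 had a fold change above 1 and 2 below (median log2 fold change 0.047), with 0 called. AMBRA1 was the highest per kilobase (15.4) and had 106, 101, 126 and 122 CPM in GDNF, against 109, 162, 118 and 103 CPM in CT. Apart from the high value of CT replicate 2 the groups covered the same range, and the log2 fold change was -0.11 (interval -0.46 to 0.24), and 0.055 without CT replicate 2. The kinase PIK3C3 ranged from 51.8 to 68.7 CPM in GDNF and from 33.3 to 72.9 CPM in CT, and BECN1 from 24.6 to 30.2 CPM in GDNF and from 26.4 to 30.0 CPM in CT. UVRAG was nearly constant in GDNF, at 31.8 to 32.3 CPM, and spread over 25.7 to 34.8 CPM in CT. ATG14 had 19.9 to 24.7 CPM in GDNF and 17.4 to 26.4 CPM in CT, and the ratio of ATG14 to UVRAG per kilobase was 0.777 to 0.964 in GDNF and 0.791 to 1.10 in CT. PIK3R4 had 23.9 to 26.7 CPM in GDNF and 15.8 to 27.2 CPM in CT.

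ATG9A is a scramblase in small vesicles that seed the membrane, ATG2A and ATG2B carry lipid into it, and WIPI1 and WIPI2 bind PI3P, WIPI2 also binding ATG16L1. Of these 5 genes 1 had a fold change above 1 and 4 below (median log2 fold change -0.057), with 0 called. WIPI2 led the group per kilobase (10.8) and had 89.9, 85.7, 104 and 93.4 CPM in GDNF and 83.1, 115, 109.6 and 91.9 CPM in CT. The lowest and the highest library were both in CT, and the log2 fold change was -0.10 (interval -0.40 to 0.20), and -0.021 without CT replicate 2. ATG9A had 45.02, 43.7, 50.6 and 48.3 CPM in GDNF, against 45.3, 61.7, 53.5 and 44.9 CPM in CT. The 2 lowest CT libraries fell within the GDNF range and the other two lay above it, and the log2 fold change of -0.13 (interval -0.43 to 0.17) did not pass the test and was -0.025 without CT replicate 2. The level of ATG9A is uncertain, because 38.8% of its exonic bases are shared on the same strand with the gene AC068946.2. That gene was listed with 0 to 7 counts per library. How shared reads were counted is not given, so these counts do not bound the uncertainty.

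The ratio of the paralogs in this group differed between libraries. ATG2A ranged from 28.5 to 37.7 CPM in GDNF and from 26.7 to 49.3 CPM in CT, while ATG2B ranged from 62.9 to 84.0 CPM in GDNF and from 50.1 to 83.1 CPM in CT. Per kilobase, ATG2A was 0.637 to 1.13 times ATG2B in GDNF and 0.604 to 1.85 times in CT. ATG2A has a GC content of 64.0% and ATG2B of 44.2%, and the ratio was highest in CT replicate 2, in which all members of high GC content were high. WIPI1 had 4.54 to 6.12 CPM in GDNF and 4.36 to 7.02 CPM in CT. WIPI2 was 5.60 to 8.68 times WIPI1 per kilobase in GDNF and 5.88 to 9.97 times in CT, and for WIPI1 28.1% of its exonic bases lie opposite a gene on the other strand.

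Conjugation follows: ATG7 activates ATG12 and the ATG8 proteins, ATG10 and ATG3 are the E2-like enzymes that pass on ATG12 and ATG8, and ATG12 joined to ATG5 with ATG16L1 sets where ATG8 is attached to lipid. Of these 6 genes 2 had a fold change above 1 and 4 below (median log2 fold change -0.024), with 0 called. ATG16L1 was the highest per kilobase (7.62) and had 47.0, 45.5, 42.7 and 46.6 CPM in GDNF and 40.2, 49.2, 48.6 and 48.6 CPM in CT. Of the CT libraries 3 lay above every GDNF library and CT replicate 1 lay below them all, which left a log2 fold change of -0.037 (interval -0.30 to 0.22). ATG10, the enzyme with the smallest p of the group, was rare, with 9.36, 8.18, 8.17 and 6.32 CPM in GDNF and 8.80, 5.79, 7.33 and 7.47 CPM in CT. Its groups overlapped over most of their range, and the log2 fold change was 0.12 (interval -0.26 to 0.51), and 0.033 without CT replicate 2.

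ATG5, which was chosen here after its values were seen, is the conjugate partner of ATG12 and had 26.1, 22.4, 22.05 and 17.5 CPM in GDNF, against 26.9, 12.5, 26.5 and 28.6 CPM in CT. Of the CT libraries 3 lay above every GDNF library and CT replicate 2 lay below every one. Over all 8 libraries the log2 fold change of ATG5 was -0.10 (interval -0.63 to 0.43). Without CT replicate 2 it was -0.31 (interval -0.57 to -0.042, an unadjusted p under 0.05 but an adjusted p = 0.996 in edgeR), and with offsets for GC content and length and all libraries kept it was -0.18 (interval -0.38 to 0.0057). It did not pass the adjusted test under any setting tried. ATG3 showed the same arrangement, with 30.4 to 37.5 CPM in GDNF and 37.5 to 39.5 CPM in CT apart from the 22.8 CPM of CT replicate 2, and a log2 fold change of -0.16 (interval -0.37 to 0.044) without that library. ATG12 had 48.4 to 64.7 CPM in GDNF and 36.8 to 70.2 CPM in CT. ATG7 had 12.8 to 13.7 CPM in GDNF and 10.2 to 16.5 CPM in CT, and 18.1% of its exonic bases lie opposite another gene.

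The ATG4 proteases trim new ATG8 proteins before conjugation and cut them off the membrane afterwards. Of these 4 genes 1 had a fold change above 1 and 3 below (median log2 fold change -0.050), with 0 called, and they held both ends of the range over all members. ATG4D (ENSG00000130734, chromosome 19, 10543895 to 10553418 in GRCh38) had 17.9, 16.2, 21.2 and 22.1 CPM in GDNF, against 19.2, 32.0, 23.4 and 17.4 CPM in CT. CT replicates 2 and 3 lay above every GDNF library and the other 2 CT libraries lay inside the GDNF range. Its log2 fold change of -0.25 (interval -0.69 to 0.19) was the lowest of the 36 and had the smallest p, and it was -0.046 without CT replicate 2; 14.97% of its exonic bases lie opposite another gene. ATG4C, at the other end, had 8.74, 8.46, 5.92 and 5.78 CPM in GDNF and 8.36, 2.99, 4.98 and 8.51 CPM in CT. Both groups were split into higher and lower libraries, the lowest being CT replicate 2, and the log2 fold change was 0.22 (interval -0.45 to 0.88), and -0.0027 without that library (interval -0.43 to 0.43).

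ATG4B, the protease that acts on most ATG8 proteins, was the highest of the 4 per kilobase (15.03), followed by ATG4D (9.29). ATG4B had 95.1, 88.4, 95.8 and 106 CPM in GDNF and 91.6, 137, 94.4 and 89.0 CPM in CT. Of the 8 libraries 7 lay between 88.4 and 106 CPM and CT replicate 2 lay above them (log2 fold change -0.10, interval -0.44 to 0.25, and 0.077 without that library). ATG4A had 6.62 to 7.76 CPM in GDNF and 5.29 to 8.67 CPM in CT. Per kilobase, ATG4B was 5.37 to 6.53 times ATG4A in GDNF and 4.53 to 11.5 times in CT.

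The ATG8 proteins are small ubiquitin-like proteins that are joined to lipid on the autophagosome, where they bind the receptors, and they fall into the LC3 and the GABARAP subfamilies. MAP1LC3A (ENSG00000101460, chromosome 20, 34546854 to 34560345) and MAP1LC3B (ENSG00000140941, chromosome 16, 87383995 to 87404779) code for close relatives, yet their mRNAs differ in base composition, at 59.5% GC over the 363 coding bases of MAP1LC3A and 47.5% over the 375 of MAP1LC3B. Exon 3 shows it and is printed as an example. Whether base composition bears on the ratio of these genes between libraries was not tested. Both exons hold 107 bases on the plus strand, at chr20:34559347-34559453 for MAP1LC3A and chr16:87402175-87402281 for MAP1LC3B in GRCh38 (transcripts of GENCODE release 29), and the capitals mark the 22 bases that differ.
MAP1LC3A: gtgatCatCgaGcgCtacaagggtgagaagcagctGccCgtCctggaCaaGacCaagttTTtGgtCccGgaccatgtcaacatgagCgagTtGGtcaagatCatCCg
MAP1LC3B: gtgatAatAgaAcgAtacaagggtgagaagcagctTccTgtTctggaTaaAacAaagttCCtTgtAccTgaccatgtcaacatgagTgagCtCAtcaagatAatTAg
These exons are identical at 79.4% of bases. At the 22 positions that differ, MAP1LC3A has G or C at 19 and MAP1LC3B at 4.

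MAP1LC3A had the highest level of all members, 107 CPM per kilobase, followed by GABARAPL1 at 46.0, the receptor OPTN at 38.9, GABARAPL2 at 36.4 and MAP1LC3B at 31.0. The counts of MAP1LC3A were 157, 152, 199 and 221 CPM in GDNF, against 152, 259, 211 and 164 CPM in CT. In each group 2 libraries were low and 2 high, CT replicate 2 being the highest, and the groups overlapped over most of their range (log2 fold change -0.11, interval -0.53 to 0.31, and 0.057 without that library). MAP1LC3B had 173, 169, 189.7 and 147 CPM in GDNF and 166, 107, 184 and 180.5 CPM in CT. The order turned round in this gene: CT replicate 2 was the lowest library and GDNF replicate 4 the next lowest, the same libraries that were highest for MAP1LC3A (log2 fold change 0.090, interval -0.29 to 0.47, and -0.055 without CT replicate 2). Per kilobase, MAP1LC3A was 2.71 to 4.54 times MAP1LC3B in GDNF and 2.74 to 7.30 times in CT, with the 4.54 in GDNF replicate 4 and the 7.30 in CT replicate 2. A close copy, MAP1LC3B2, is identical to MAP1LC3B at 373 of 375 coding bases, and its 329 to 473 counts per library may include reads of MAP1LC3B (3222 to 6070 counts). How reads mapping to both genes were counted is not given, so both levels are uncertain to an unknown degree.

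In the GABARAP subfamily, GABARAPL1 had 189.9, 183, 198 and 175 CPM in GDNF and 194, 165, 203 and 197 CPM in CT. Its libraries were close, with CT replicate 2 lowest and GDNF replicate 4 next, and the log2 fold change was -0.025 (interval -0.27 to 0.22), and -0.081 without CT replicate 2. GABARAPL2 had 116, 109.7, 111 and 106 CPM in GDNF, against 117, 89.7, 119 and 116 CPM in CT. The 3 CT libraries other than CT replicate 2 lay above the top of the GDNF range, and that library lay below the whole of it, which left equal means of 111 ± 3.95 CPM in GDNF and 111 ± 13.98 CPM in CT (SD, n = 4 each). Its log2 fold change was 0.00094 over all libraries and -0.082 (interval -0.25 to 0.089) without CT replicate 2. GABARAPL1 was 1.22 to 1.32 times GABARAPL2 per kilobase in GDNF and 1.23 to 1.37 times in CT, the steadiest of the 8 ratios examined.

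GABARAP, the founding gene of its subfamily, had few counts, with 0.828, 0.658, 0.840 and 0.879 CPM in GDNF and 0.633, 0.466, 0.933 and 1.23 CPM in CT. These values stand on 14 to 39 counts per library and overlapped between groups (log2 fold change -0.029, interval -0.73 to 0.67, and -0.22 without CT replicate 2). The level is therefore uncertain, and also because the annotation holds a gene on the same strand, AC120057.2, that covers 261 of the 351 coding bases of GABARAP (74.4%), so that reads there belong to both genes. AC120057.2 was listed with 0 counts in every library, and its antisense neighbour AC120057.3 with 2 to 16. Exon 2 of GABARAP (chr17:7241601-7241679, minus strand, GRCh38, GENCODE release 29) is printed as an example, with capitals for the bases shared with AC120057.2, which are all 79.
GABARAP: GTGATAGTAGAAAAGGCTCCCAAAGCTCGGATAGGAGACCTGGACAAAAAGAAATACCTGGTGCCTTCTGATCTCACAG
How the authors' counting treated reads shared by overlapping genes is not given in the sources used here.

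Of the per-kilobase level of the 5 ATG8 genes together, MAP1LC3A made up 47.2 ± 5.26% in GDNF and 49.2 ± 9.01% in CT (SD, n = 4 each). GABARAPL1 made up 21.1 ± 1.88% in GDNF and 20.8 ± 2.80% in CT, GABARAPL2 16.8 ± 1.70% in GDNF and 16.3 ± 2.86% in CT, and MAP1LC3B 14.7 ± 1.89% in GDNF and 13.5 ± 3.39% in CT. GABARAP made up 0.162 ± 0.0134% in GDNF and 0.162 ± 0.0701% in CT. Its level is uncertain, as described above, and with it all of these shares. Each of these shares differed between groups by less than 1 SD of either group. The 5 genes had 2 fold changes above 1 and 3 below (median log2 fold change -0.025), with 0 called.

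**Figure D2:**
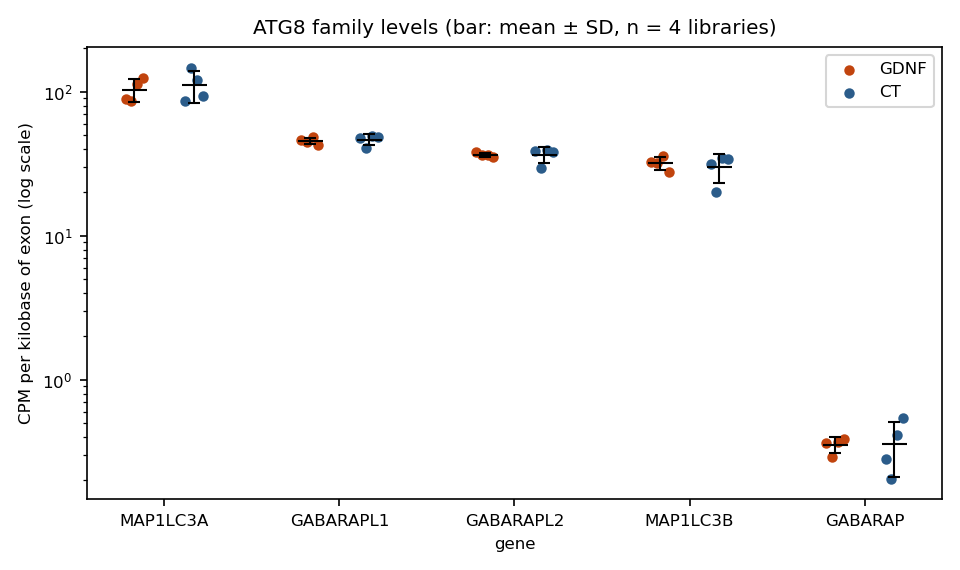
Level of the 5 ATG8 genes in CPM per kilobase of exon on a log axis, with 1 point per library for GDNF (left) and CT (right) and the mean ± SD in black (n = 4). MAP1LC3A lies above the rest, at a mean of 107, GABARAPL1, GABARAPL2 and MAP1LC3B follow between 31.0 and 46.0, and GABARAP lies far below at 0.357. The level of GABARAP is uncertain because of its overlap with AC120057.2.

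Cargo receptors bind ubiquitin-tagged material and ATG8 at once. OPTN and TAX1BP1 act in the removal of damaged mitochondria among other cargo, CALCOCO2, also called NDP52, in that and in the removal of bacteria, and NBR1 in the removal of protein aggregates. Of these 4 genes 3 had a fold change above 1 and 1 below (median log2 fold change 0.050), with 0 called. OPTN, the highest per kilobase, had 199, 195, 221 and 195 CPM in GDNF and 203, 192, 201 and 193 CPM in CT. GDNF replicate 3 lay above the narrow band of the other 7 libraries, and the means were 203 ± 12.4 CPM in GDNF and 197 ± 5.43 CPM in CT (SD, n = 4 each; log2 fold change 0.039, interval -0.19 to 0.27). NBR1 had 109.7, 108, 124 and 106 CPM in GDNF and 118, 107, 116 and 110.3 CPM in CT. GDNF replicate 3 was again the highest, and the groups overlapped otherwise (log2 fold change -0.013, interval -0.26 to 0.23). OPTN and NBR1 were, after ULK2, the steadiest members, with SDs of log2 CPM of 0.065 and 0.079.

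TAX1BP1 had 108, 98.3, 79.0 and 72.8 CPM in GDNF, against 107, 46.1, 84.6 and 107 CPM in CT. Each group held 2 high and 2 low libraries with CT replicate 2 at the bottom, and the interval of the log2 fold change (0.060) was wide, at -0.48 to 0.60. The fold change was -0.14 in log2 (interval -0.42 to 0.14) without that library. CALCOCO2, a minor receptor here by level, had 23.0, 19.6, 18.1 and 19.8 CPM in GDNF and 20.4, 12.2, 22.9 and 20.7 CPM in CT. Only CT replicate 2 stood apart, and the log2 fold change was 0.080 (interval -0.34 to 0.50), and -0.076 without that library. BNIP1, a SNARE protein of the endoplasmic reticulum that is the only member outside the roles above, had 9.85, 10.04, 11.4 and 10.4 CPM in GDNF, against 8.96, 13.8, 11.7 and 11.8 CPM in CT. As with ATG16L1, 3 CT libraries lay above every GDNF library and CT replicate 1 below every one (log2 fold change -0.15, interval -0.49 to 0.19, and -0.049 without CT replicate 2).

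Across the libraries, the level of the members went with their base composition. CT replicate 2 was the highest of the 8 libraries in 12 members and the lowest in 20. All 8 members whose longest annotated transcript is over 55% GC had their highest value in CT replicate 2, at a median of 0.66 log2 units above the median of the other 7 libraries. Of the 15 members under 45% GC, 14 had their lowest value there, at a median of -0.64. The 13 members between had a median deviation of 0.018. The trend was not confined to that library: across the 36 members, Spearman's rho between GC content and deviation from the other libraries was -0.73, -0.68, 0.63 and 0.83 in GDNF replicates 1 to 4 and -0.78, 0.87, 0.51 and -0.71 in CT replicates 1 to 4. In the 11820 genes of at least 5 CPM it was 0.84 in GDNF replicate 4 and 0.90 in CT replicate 2, so the members followed the table as a whole. These correlations are descriptions, since the genes of a library share its preparation, and the deviations are taken from libraries shared between them.

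**Figure D3:**
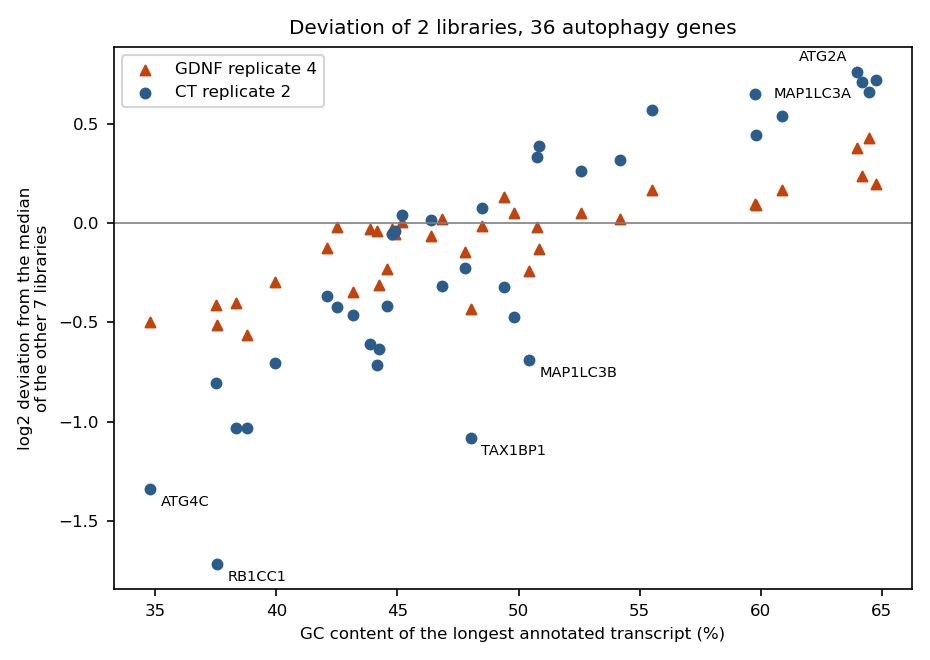
Deviation of 36 members from the median of the other 7 libraries (log2 units) against the GC content of the longest annotated transcript, for GDNF replicate 4 (triangles) and CT replicate 2 (circles). Both rise with GC content, CT replicate 2 more steeply, with a median of -0.64 under 45% GC and 0.66 over 55% GC, and MAP1LC3B and TAX1BP1 lie below the other genes of similar GC content.

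The direction of the fold changes went with GC content as well. All 8 members over 55% GC (ULK1, ATG101, AMBRA1, ATG9A, ATG2A, ATG4B, ATG4D and MAP1LC3A) had a fold change below 1, with a median log2 value of -0.11, whereas 11 of the 15 under 45% GC had one above 1, with a median of 0.044. Without CT replicate 2, 6 of the 8 were above 1 (median 0.056) and 13 of the 15 below 1 (median -0.077), so that 19 of the 36 members changed sign. With an offset per library for GC content and length and all libraries kept, the members stood at 11 above 1 and 25 below, with a median of -0.027, and 9 changed sign. The part of the GC trend in each member's fold change was not tested beyond these values.

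The offsets were fitted to these same libraries, so a smaller spread between them, and shorter confidence intervals with it, are largely built in. The median SD of log2 CPM over the 8 libraries was 0.12 for the members after adjustment, against 0.23 before it. The SD was smaller for 29 of 36 members. Over the 11820 genes of at least 5 CPM the median was 0.12 after adjustment and 0.22 before it, with a smaller SD for 9804 genes. In ULK1, CT replicate 2 moved to 129.6 CPM after adjustment, beside 115 to 125 CPM in GDNF and 121 to 131 CPM in the other CT libraries. PIK3C3, at 38.3% GC, stood at 57.7 to 58.7 CPM in GDNF and 56.6 to 63.6 CPM in CT after adjustment, so that its spread nearly vanished. ATG5 stood at 19.4 to 22.7 CPM in GDNF and 21.7 to 26.6 CPM in CT, with CT replicate 2 inside the GDNF range. The adjusted values of RB1CC1 were 103 to 114 CPM in GDNF and 69.9 to 113 CPM in CT, with CT replicate 2 still lowest. MAP1LC3B and TAX1BP1 did not follow: CT replicate 2 remained at 97.4 CPM for MAP1LC3B, against 143 to 192 CPM in GDNF and 170 to 187 CPM in the other CT libraries, and at 45.9 CPM for TAX1BP1, against 72.0 to 106 CPM in GDNF and 88.0 to 107 CPM in the other CT libraries. Of the 7 members whose SD was not smaller, the steady genes ULK2, OPTN and NBR1 were 3, at 0.068, 0.12 and 0.12 after adjustment. The rest were MAP1LC3B (0.27 before and 0.32 after), BECN1 (0.10 and 0.16), WIPI1 (0.208 and 0.210) and GABARAP (0.253 and 0.258). With the offsets, the confidence interval lay within 1.5-fold for 35 of 36 members, GABARAP being the exception, and 0 members passed the adjusted test. An unadjusted p under 0.05 was reached by 0 members with the offsets, against 1.78% of all genes.

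**Figure D4:**
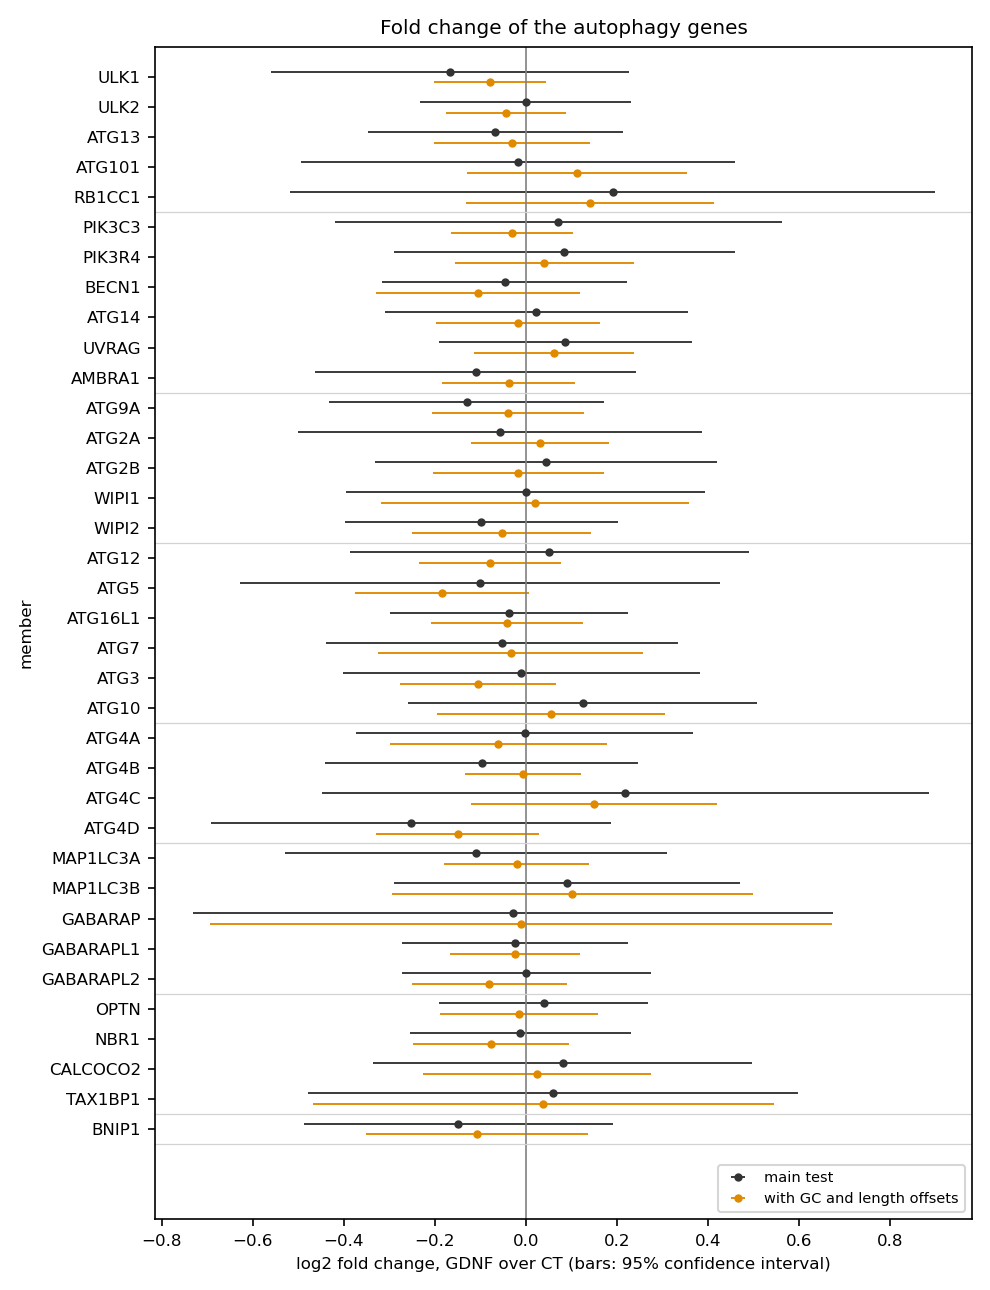
Log2 fold change of GDNF over CT for the 36 members with 95% confidence intervals, from the test over all 8 libraries (black) and from the same test with offsets for GC content and length (orange). Every interval holds 0 in both fits, and the median length to 1 side of the estimate is 0.38 in the first and 0.18 with offsets.

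Other genes of the pathway were read in 5 lists of 82 genes, of which 79 were tested, and none passed. In these lists 31 genes had a fold change above 1 and 48 below, with a median log2 fold change of -0.050 beside -0.0098 for all genes. An unadjusted p under 0.05 in edgeR was reached by 0 of them, against 0.88% of all genes tested. Among 17 other receptors (6 above 1, 11 below), the ubiquitin receptor SQSTM1, known as p62, had 70.2, 69.9, 88.4 and 86.5 CPM in GDNF and 71.2, 112, 95.9 and 68.2 CPM in CT (log2 fold change -0.14, interval -0.53 to 0.25, and 0.0093 without CT replicate 2), and 22.04% of its exonic bases lie opposite another gene. FKBP8, a receptor on mitochondria, was the highest per kilobase (130.4), with 316 to 426 CPM in GDNF and 312 to 555 CPM in CT, and CALCOCO1, a receptor for endoplasmic reticulum, had the smallest p, with 43.7 to 49.8 CPM in GDNF and 42.1 to 61.7 CPM in CT. BNIP3, a receptor on mitochondria, was the only gene of the 5 lists whose groups did not overlap, and it is named here for that reason. The groups failed to overlap for 0.93% of all genes tested, so 1 gene of 79 is near that share and is not a result about the lists. BNIP3 had 28.3, 28.3, 25.8 and 28.7 CPM in GDNF and 29.5, 29.7, 30.7 and 29.9 CPM in CT, a difference too small to be called (log2 fold change -0.11, interval -0.35 to 0.14), and its 39 annotated pseudogenes hold as many counts as 26.4% of its own.

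The kinase MTOR, which as mTORC1 holds the ULK1 complex in check when nutrients are plentiful, had 127, 120.0, 121 and 128 CPM in GDNF and 116, 152, 117 and 111 CPM in CT. Its means were 124 ± 4.02 CPM in GDNF and 124 ± 18.7 CPM in CT (SD, n = 4 each), and its log2 fold change was 0.00082, against 0.12 without CT replicate 2. In the list of 28 genes of mTORC1 and AMPK control (13 above 1, 15 below, median log2 fold change -0.027), the smallest p was that of LAMTOR2, part of the lysosomal anchor of mTORC1, at 23.4 to 31.0 CPM in GDNF and 26.8 to 42.7 CPM in CT (log2 fold change -0.25, interval -0.63 to 0.13, and -0.074 without CT replicate 2), and the highest level per kilobase that of the GTPase RRAGA, at 98.9 to 119.8 CPM in GDNF and 104 to 128 CPM in CT.

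Of the 8 transcription factors and chromatin regulators tested, 1 had a fold change above 1 and 7 below, with a median log2 fold change of -0.087. TFEB, the master regulator of lysosomal and autophagy genes, had 0.571, 0.801, 0.773 and 1.01 CPM in GDNF, against 1.203, 1.26, 1.07 and 0.914 CPM in CT. All but 1 library of each group kept to its own side, at levels near 1 CPM that rest on 237 counts over 8 libraries. Its log2 fold change of -0.50 (interval -1.06 to 0.061, not called in edgeR, and -0.43 without CT replicate 2) was the largest in size over the members and the pathway lists. Its relative TFE3 was far more abundant, at 23.1 CPM per kilobase beside 0.168 for TFEB, and had 85.2 to 109 CPM in GDNF and 86.4 to 134 CPM in CT. MITF, with 36 counts over all libraries, was not tested.

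Among 14 other genes of early steps 7 had a fold change above 1 and 6 below (median log2 fold change 0.0044), and MAP1LC3C, the remaining LC3 gene, had 52 counts in all and was not tested. NRBF2, a subunit of the ATG14 complex, had the smallest p, with 7.91 to 9.05 CPM in GDNF and 7.49 to 10.2 CPM in CT, though its 5 pseudogenes held as many counts as 14.1% of its own. SH3GLB1, a membrane-bending partner of UVRAG, had the highest level per kilobase, with 170.3 to 212 CPM in GDNF and 92.6 to 224 CPM in CT. Among 14 genes for fusion of autophagosomes with lysosomes 4 were above 1 and 9 below (median -0.054), and the SNARE VAMP8, with 77 counts, was not tested. VPS11, a subunit of the tethering complexes, had 34.3 to 39.7 CPM in GDNF and 30.8 to 49.3 CPM in CT, and the GTPase RAB7A 311 to 337 CPM in GDNF and 314 to 369.6 CPM in CT.

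Overlaps in the annotation bear on the level of several members. Exonic bases lie opposite another gene in 19 of the 36 members, over 15% of them in WIPI1 (28.1%), GABARAP (25.2%), ATG101 (19.2%), ATG7 (18.1%) and BECN1 (17.1%). The strand setting of the counting is not given in the sources used here, so reads of these genes and of their antisense partners may not have been told apart. Pseudogenes named after a member exist for 5 members and held at most 0.330% of that member's counts. Only names made of the member's symbol and P, with or without a number, were searched, so copies under other names were not counted.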

How the data were processed

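PolyA RNA of 8 samples was sequenced, 4 GDNF and 4 CT. The deposited values are raw counts of reads per Ensembl gene, 1 column per library, made by the authors; the submitters' processing notes name GRCh38, DESeq2, HTSeq, STAR, cutadapt and FastQC. The sources used here do not give versions, annotation release, strand setting or the treatment of shared or multiply mapped reads, which affect genes with overlaps or close copies. Per the labels, RNA came from TRIzol extracts cleaned on columns, and libraries from a TruSeq mRNA kit.

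Samples were grouped by title. After filterByExpr (at least 10 counts, total of at least 15) 19999 genes were left, and all were tested with edgeR 4.0.16 (R 4.3.3): TMM factors, robust dispersions, quasi-likelihood, group as the only term, Benjamini-Hochberg adjustment at 0.05, two-sided. CPM was computed from the counts with TMM-scaled library sizes; means have the SD over 4 libraries. A count of 0 would allow up to 0.0868 to 0.105 CPM (3 counts, counting error only). GENCODE release 29 gave exon length, overlaps, the GC content of the longest transcript and the sequences, and 98.7% of the 58275 listed genes found in it had the same start and end.

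The members, their roles, the 5 pathway lists and the cell markers were chosen with earlier results of these data known. Values in every library are given for the ATG8 genes, for the gene of each role with the highest level per kilobase and that with the smallest p, and for the 3 members with the largest and the 3 with the smallest SD of log2 CPM. Each pathway list names its gene of smallest p and of highest level, and SQSTM1, TFEB and MTOR always. The 36 members and the lists were not tested as sets. Alternatives were DESeq2 1.42.0, limma-voom (limma 3.58.1) with quality weights, other scalings and filters, a replicate block, each library left out, and offsets from a spline of log counts on GC content and length in each library, listed with an earlier result on GC content known. The offsets without CT replicate 2 were chosen after seeing the data.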

Additional observations from a re-analysis of the deposited data

Results flagged for a closer look

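In 8 of the 72 groups of 4 libraries (36 members, 2 groups each) 1 library lay far from the other 3 by Dixon's test at the 95% level. Among independent groups chance would flag about 1 in 20, or 3.6 of 72. The 72 groups are not independent, because all members share the same libraries. The share of flagged groups over all genes was not computed, so the count of 8 is not a result about the members. In 5 of the 8 the library was CT replicate 2. It was high for ULK1, the starting kinase, at 188.8 CPM, and for the protease ATG4B at 137.4 CPM. It was low for ATG5 at 12.5 CPM, for the E2-like enzyme ATG3 at 22.8 CPM and for GABARAPL2 at 89.7 CPM. The other 3 were PIK3R4 in GDNF replicate 2 at 26.7 CPM, OPTN in GDNF replicate 3 at 221 CPM and ATG16L1 in CT replicate 1 at 40.2 CPM.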

How the results depend on the processing

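No member was called under any of the 19 alternatives, DESeq2 and limma-voom included, the smallest adjusted p being 0.925. The members' median log2 fold change lay between -0.038 and 0.017 over these alternatives, within the SD of 0.086 of the member median over libraries. Leaving out 1 library at a time gave 0 to 1 members with an unadjusted p under 0.05 and 0 to 3 members whose groups did not overlap. These were ATG16L1 and BNIP1 without CT replicate 1 (3.06% of all genes then did not overlap), ATG5, ATG3 and GABARAPL2 without CT replicate 2 (4.07%), and UVRAG without CT replicate 3 (2.03%). The member with p under 0.05 was ATG5 without CT replicate 2, where 1.92% of all genes had such a p, and it was also the 1 such member with GC and length offsets without CT replicate 2 (2.13% of all genes). A filter at a mean of 1 CPM removed GABARAP. The labels do not say whether replicate numbers pair the samples. Same-numbered libraries correlated at 0.71, -0.64, 0.32 and -0.83 in their deviations from the group means. Only 1 of the GDNF libraries correlated best with its own number. Because the deviations of the libraries went with GC content, these correlations cannot decide whether same-numbered libraries belong together. With the replicate block 0 members were called and 0 had a p under 0.05, with 20 fold changes above 1, 16 below and a median of 0.010. The values of the member GABARAP and of the pathway gene TFEB rest on few counts, 14 to 39 per library and 237 over 8 libraries. The parts of depth and of spread between libraries in the precision of any gene were not tested.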

Other observations

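The spread between libraries was larger in CT than in GDNF for 32 of the 36 members, and for 17 of the 36 once CT replicate 2 was left out. The same shares over all genes were not computed, so these counts are not a result about the members. In the limma-voom fit with library quality weights CT replicate 2 had a weight of 0.091, beside 0.62 to 3.08 in the GDNF libraries and 0.79 to 2.14 in the other CT libraries. Summed per kilobase by role, the 5 genes of the ULK1 complex had 64.1 to 67.8 CPM per kilobase in GDNF and 64.6 to 70.0 in CT, and the 5 ATG8 genes 199.5 to 233.9 in GDNF and 203.8 to 243.7 in CT. The 4 ATG4 genes had 25.6 to 30.0 in GDNF and 26.7 to 37.5 in CT. In these sums the groups overlapped, and the highest ULK1 complex and ATG4 sums were those of CT replicate 2.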
